A study of Mus musculus with 61 samples.

Results

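The genes described here encode the machinery that docks, primes and fuses synaptic vesicles, together with proteins that sit in or on the vesicle membrane. They are the 70 protein-coding genes, of 55401 genes in the count table, whose mouse symbols belong to named families: the vesicle-associated membrane proteins (Vamp), Snap25, plasma membrane syntaxins, the syntaxin-binding proteins (Stxbp), the Unc13 priming factors, Nsf and its adaptors Napa, Napb and Napg, the synaptotagmins (Syt), Doc2 proteins and complexins (Cplx), the active zone proteins Rims, Bsn and Pclo, and the vesicle proteins Sv2, Syp, Syngr, synapsins (Syn), Rab3 and Snap91. The rule used symbols alone and no measured value, but it was chosen with earlier results of these data known.

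RNA was measured in sorted nuclei of the nucleus accumbens, the ventral part of the mouse striatum, in 61 libraries. All mice were males that carried the Cre-dependent reporter LSL-eGFP::L10a, a fluorescent tag carried on a ribosomal protein, together with D1-Cre or D2-Cre, so that the sorted nuclei are those in which a dopamine receptor D1 or D2 driver had been active. Mice received saline or morphine daily for 15 days, spent 30 days in the home cage, and were killed 1 h after a challenge injection of saline or morphine. The first letter of a group name is the repeated treatment and the second the challenge: SS is saline then saline, SM saline then morphine, MS morphine then saline and MM morphine then morphine. The D1 nuclei gave 8 SS, 8 SM, 9 MS and 7 MM libraries, and the D2 nuclei 7 SS, 7 SM, 8 MS and 7 MM libraries. The labels list doses without assigning them to mice and do not say which libraries come from separate animals, so p-values measure the spread between libraries, which may be technical in part.

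Neurotransmitter is released when SNARE proteins of the vesicle (Vamp) and of the plasma membrane (syntaxin and Snap25) zip into a complex that pulls both membranes together. Syntaxin-binding and Unc13 proteins guide the assembly of that complex, Nsf and its adaptors take it apart after fusion, complexins hold it ready, and synaptotagmins bind calcium and trigger or tune fusion. Active zone scaffolds place vesicles beside calcium channels. The D1 and D2 drivers mark striatal projection neurons, which release GABA at their targets in the pallidum and midbrain. A sort by driver activity does not exclude other cells. In a nuclear RNA measurement the values report transcripts in the nucleus, not protein at the terminal.

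Promoter stretches are shown for Rims3, Syt6 and Sv2b. These members have a promoter entry and were called in D2 minus D1 over the 4 treatments with background as a covariate, as described below. Rims3 was called with all libraries. Syt6 and Sv2b were called only when library 1 of the D1 SS group was also left out, in a fit added after the data had been seen. In SS, DESeq2 and RLE scaling called many more members, most of whose stretches are not shown. A stretch is also shown for Syn1, which holds the searched cyclic AMP response element. Each is the run of 120 bases that ends before the gene's start in both RefSeq and the gene annotation of the count table, read 5′ to 3′ on the gene's own strand from RefSeq on build GRCm38.p6. Capitals mark GC boxes (GGGCGG, or CCGCCC on the other strand) and the cyclic AMP response element (TGACGTCA, the same on both strands). Rims3 is from chr4:120854679-120854798 on the plus strand, Syt6 from chr3:103575111-103575230 on the plus strand, Sv2b from chr7:75309263-75309382 on the minus strand and Syn1 from chrX:20921005-20921124 on the minus strand.
Rims3: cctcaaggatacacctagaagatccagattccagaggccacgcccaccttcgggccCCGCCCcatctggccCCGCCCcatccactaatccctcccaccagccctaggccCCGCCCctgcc
Syt6: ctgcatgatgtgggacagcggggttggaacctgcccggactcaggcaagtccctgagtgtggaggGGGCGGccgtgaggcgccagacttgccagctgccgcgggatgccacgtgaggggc
Sv2b: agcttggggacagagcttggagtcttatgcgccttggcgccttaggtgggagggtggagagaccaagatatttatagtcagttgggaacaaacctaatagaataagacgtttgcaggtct
Syn1: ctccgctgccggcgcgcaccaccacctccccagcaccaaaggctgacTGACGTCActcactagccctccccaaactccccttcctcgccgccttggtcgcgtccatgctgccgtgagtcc

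The Rims3 stretch holds 3 GC boxes, the Syt6 stretch 1 and the Sv2b and Syn1 stretches none. The symbol of 49 of the 70 members was in the promoter table, and 45 had a window of 300 bases within 250 bases of the annotated gene start. The members' windows were the nearest to the gene start, 1 per gene. The 32851 windows of the whole table, from 27025 symbols, were not chosen in that way, so the 2 sets are not alike. A GC box lay in 33 of these 45 windows (73.3%), against 35.7% of all 32851 windows in the table. The response element lay in 3 of 45 (6.67%: Napa, Stxbp3 and Syn1), against 1.79% of all windows. The median GC content was 66% in the members' windows and 52.7% in all windows. A match describes these letters only and is not evidence of binding.

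Total counts per library ran from 11518606 to 26108954, with a median of 17924400. Much of each library was spread thinly over the genome: if every gene carried counts at the density seen over 1420 olfactory and vomeronasal receptor genes, which these neurons are not known to express, those counts would make up 33.1% to 86.3% of the library in 60 libraries. That share is called the background here, and a level is given between genes as a multiple of background, which is the library's CPM (its counts scaled to a common total) per kb of gene span divided by the same density over the receptor genes of that library. Library 1 of the D1 SS group stood apart with a background of 7.47% and a TMM scaling factor of 0.388, where the next lowest factor was 0.811, so results that rest on it are given with and without it. The sorted cell types matched their labels: Drd1 had a median multiple of 27.0 in the 31 other D1 libraries and 5.15 in D2, and Drd2 had 24.2 in D2 and 2.37 in D1. Of markers of other cells, 0 of 8 cortical glutamatergic, 2 of 12 striatal interneuron, 1 of 12 oligodendrocyte, 1 of 10 astrocyte, 0 of 10 microglial and 0 of 9 endothelial genes reached 2 multiples of background over the 60 libraries, and no listed marker was at 0. The cortical list stood at a median of 20.1 multiples in library 1 of D1 SS, with Slc17a7, the vesicular glutamate transporter of cortical neurons, at 202, against 1.5 for the list in the 60 other libraries. A low background raises multiples by construction, and other lists were high there too. D2 neuron markers stood at 26.7 and markers of both projection neuron classes at 90.5. In summed CPM the cortical list was at 314 there, against a D1 SS median of 196. The markers of both classes were at 8229 against 2849. In bulk nuclei, fewer cells of a type and less RNA per cell cannot be told apart.

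Over the 60 libraries without library 1 of D1 SS, 33 of the 70 release genes (47.1%) had a median level of 2 or more multiples of background. The same held for 25.2% of 42870 genes tested and 24.2% of 21387 protein-coding genes tested. The median multiple was 1.88 for the release genes and 1.5 for all tested genes. By CPM per kb the highest were Vamp2 (7.55), Cplx2 (5.84), Rab3a (5.13), Syt5 (4.98) and Sv2a (4.004), and the lowest Syngr2 (0.24), Unc13d (0.57), Doc2g (0.58), Syt15 (0.58) and Stxbp4 (0.597). 10 members were at 2 or more in every one of the 60 libraries, among them Vamp2, Snap25, Cplx2, Syt5, Syt11, Rab3a, Sv2a, Syp and Syngr3. 8 members reached 2 in none of the 60: Unc13b, Unc13d, Stxbp4, Stxbp6, Syt9, Syt15, Cplx4 and Syngr2.

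**Figure D1:**
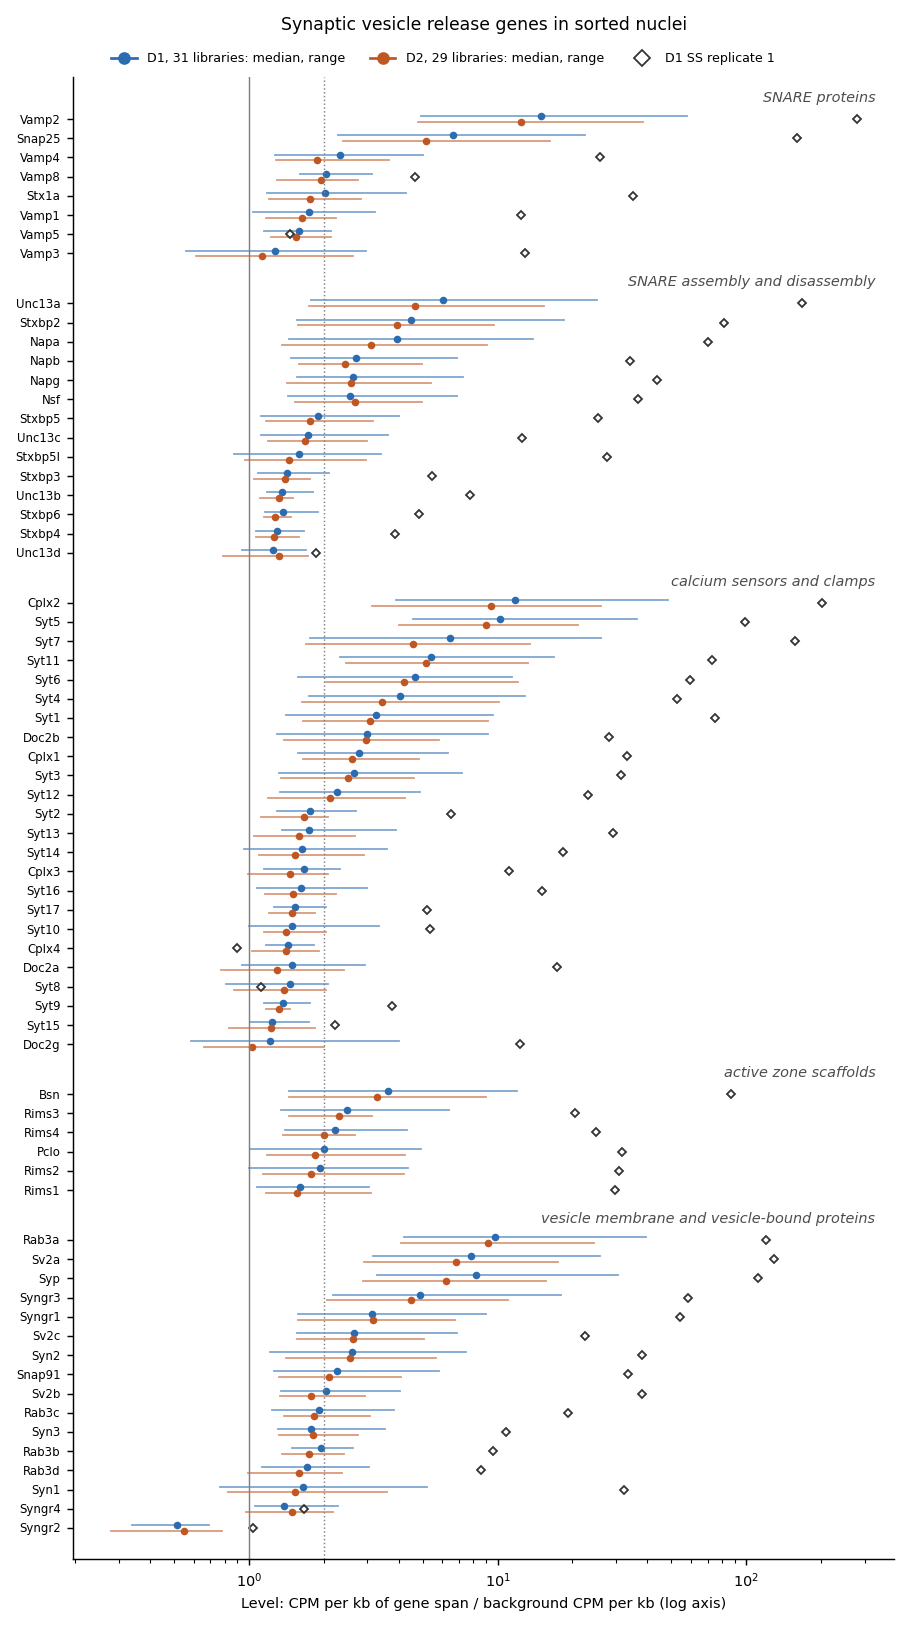
Level of the genes by role, as multiples of background on a log axis; points are medians and lines the range over 31 D1 (blue) or 29 D2 (orange) libraries, and diamonds are library 1 of D1 SS. In most roles a few members stand well to the right of the dotted line at 2 while their paralogs stay near the solid line at 1, and blue and orange points lie close together.

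Among the 9 SNARE proteins, 4 reached a median of 2 multiples over the 60 libraries. Vamp2 (synaptobrevin 2, chr11:69088490-69092384 on mm10), the main SNARE of synaptic vesicles, had the highest level of all members, with a median of 14.9 multiples in D1 (4.93 to 57.7, 31 libraries) and 12.46 in D2 (4.80 to 38.5, 29 libraries). Snap25 (chr2:136713453-136782428), the plasma membrane partner, was at 6.60 in D1 (2.29 to 22.4) and 5.15 in D2 (2.40 to 16.3). The ranges of D1 and D2 overlapped almost fully for both. The syntaxin Stx1a was near background at 2.03 in D1 and 1.76 in D2. Of the remaining Vamp genes, Vamp4, which serves endosomal traffic, was at 2.12 over the 60 libraries, Vamp8 at 1.97, Vamp1 at 1.65, Vamp5 at 1.59 and Vamp3 at 1.24. Vamp3 lies wholly inside Camta1 on the same strand, and 40.5% of Vamp1 overlaps the opposite-strand genes Tapbpl and Cd27, so their counts are uncertain.

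Of the 15 genes for SNARE assembly and disassembly, 7 reached a median of 2 multiples. Unc13a (Munc13-1, chr8:71624417-71671757), the main vesicle priming factor of forebrain synapses, was highest at 6.04 in D1 (1.78 to 25.2) and 4.65 in D2 (1.74 to 15.4). Its paralogs Unc13c, Unc13b and Unc13d were at 1.70, 1.35 and 1.29 over the 60 libraries. Stxbp2, best known from immune cell secretion, was at 4.496 in D1 and 3.93 in D2. The ATPase Nsf and its adaptors Napa, Napb and Napg lay between 2.57 and 3.70 over the 60 libraries. Stxbp5 (tomosyn), which competes with Vamp for syntaxin, was at 1.76, and Stxbp5l, Stxbp3, Stxbp6 and Stxbp4 were at 1.49 or less.

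The 24 calcium sensors and clamps spread over the widest range of names. Cplx2 (complexin 2, chr13:54371349-54383917) was second of all members at 11.7 in D1 (3.91 to 48.3) and 9.37 in D2 (3.13 to 26.2). Cplx1 was at 2.70 over the 60 libraries, while Cplx3 and Cplx4, known from retinal ribbon synapses, were at 1.60 and 1.42. The synaptotagmins led by Syt5 (9.65), Syt7 (5.26), Syt11 (5.22), Syt6 (4.43), Syt4 (3.83) and Syt1 (3.11) were the ones above 3 multiples. Syt1 is the fast calcium sensor of forebrain synapses, Syt7 a high-affinity sensor linked to asynchronous release and facilitation, and Syt4 and Syt11 bind little or no calcium. Syt2, the fast sensor of hindbrain and spinal synapses, was at 1.72. The high-affinity sensor Doc2b was at 2.98, and Doc2a at 1.41 and Doc2g at 1.14 were near background; 67.8% of Doc2g overlaps another gene on its strand. A non-coding gene on the other strand covers 73.9% of Syt4.

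Among the 6 active zone scaffolds, Bsn (Bassoon, chr9:108096022-108190384), a giant scaffold of the presynaptic cytomatrix, was at 3.62 in D1 (1.45 to 12.02) and 3.27 in D2 (1.45 to 8.98). The short RIM isoform genes Rims3 and Rims4 were at 2.38 and 2.12 over the 60 libraries. The long RIMs, Rims2 and Rims1, which bind Rab3 and calcium channels, were at 1.80 and 1.57, and Pclo (Piccolo) was at 1.89.

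The 16 vesicle membrane and vesicle-bound genes held 3 of the 10 members above 5 multiples. Rab3a, the vesicle GTPase that binds RIM (chr8:70754679-70758677), was at 9.79 in D1 (4.20 to 39.4) and 9.16 in D2 (4.10 to 24.5), while Rab3c, Rab3b and Rab3d were at 1.87, 1.77 and 1.70. Sv2a, a vesicle glycoprotein bound by the drug levetiracetam, was at 7.69 over the 60 libraries, Sv2c at 2.63 and Sv2b at 1.88. Synaptophysin (Syp) was at 7.27, the related Syngr3 at 4.68 and Syngr1 at 3.14. Of the synapsins, which tether the reserve pool, Syn2 was at 2.56, Syn3 at 1.79 and Syn1 at 1.57. Syngr2, at 0.52, was below background in both cell types; its whole span is shared with another annotated gene on the same strand, so its counts are uncertain.

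The order of the 70 genes was nearly the same in the cell types: Spearman's correlation across genes was 0.99 between the D1 and D2 medians. It was 0.89 between library 1 of D1 SS and the median of the 60 others. These are descriptions across genes, which are not independent replicates and share libraries and gene spans. The level had a Spearman correlation of 0.21 with the exon share of the span and of -0.12 with span length.

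In library 1 of D1 SS the release genes had a median of 27.8 multiples, from 0.90 for Cplx4 to 279 for Vamp2, and 64 of 70 were at 2 or more. Cplx2 stood at 201, Unc13a at 168, Snap25 at 159 and Syt7 at 156. Once background was taken off each library and the rest scaled to its counts above background, a scale added after the data had been seen, this library lay within the range of the other 31 D1 libraries for 49 members, above it for 10 and below it for 11. On that scale Vamp2 was at 17.1 CPM per kb there and at 8.38 to 35.7 in the others, and Cplx2 was at 12.3 against 7.81 to 20.7. Snap25 at 9.77 against at most 8.82, Bsn at 5.29 against at most 4.82, Sv2b at 2.28 against at most 2.20 and Stx1a at 2.10 against at most 1.98 were among those above. Rims3 at 1.20 against at least 1.48 was among those below.

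Across the 8 groups, the D1 MM group had the highest group median for 44 of the 70 members and D2 SM the lowest for 50. The median over members of the group medians was 2.30 multiples in D1 MM, 2.07 in D1 SM, 2.07 in D2 MM, 2.01 in D1 SS, 1.98 in D2 MS, 1.81 in D1 MS, 1.75 in D2 SS and 1.59 in D2 SM. A multiple is divided by the background of its library, so more background gives lower multiples by construction, and this order is not one of expression alone. Mean background was 53.9% ± 9.72 (SD, n = 7) in D1 MM and 70.2% ± 9.48 (SD, n = 7) in D2 SM. In between it was 56.9% ± 9.48 in D2 MS (n = 8), 58.0% ± 24.3 in D1 SS (n = 8), 60.9% ± 16.3 in D1 SM (n = 8), 62.0% ± 14.9 in D2 MM (n = 7), 63.3% ± 11.4 in D1 MS (n = 9) and 66.9% ± 6.52 in D2 SS (n = 7). The part of the background in the order of the groups was not tested.

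The level within a gene is given as CPM after TMM scaling, which sets libraries to a common scale. Vamp2 had a median of 26.7 CPM in D1 SS (13.6 to 160; 25.3 and at most 53.1 without library 1), 30.2 in D1 SM (10.5 to 54.6), 25.4 in D1 MS (15.1 to 77.0) and 30.5 in D1 MM (23.0 to 66.0). In D2 it was 17.2 in SS (11.8 to 23.7), 20.5 in SM (10.2 to 39.5), 30.1 in MS (17.6 to 59.3) and 24.4 in MM (10.3 to 35.6). All 8 groups overlapped, and D2 SS had the lowest median and the narrowest range. Snap25 had medians of 197, 220, 186 and 259 CPM in D1 SS, SM, MS and MM, and 144, 170, 228 and 246 in D2. Its D1 SS range was 93.1 to 1620, and 93.1 to 365 without library 1. Syt1, which had the highest mean count of the members, had medians of 750, 835, 682 and 962 CPM in D1 and 717, 670, 825 and 913 in D2, with 401 to 5671 in D1 SS (at most 1212 without library 1) and 475 to 1803 in D2 MM.

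**Figure D2:**
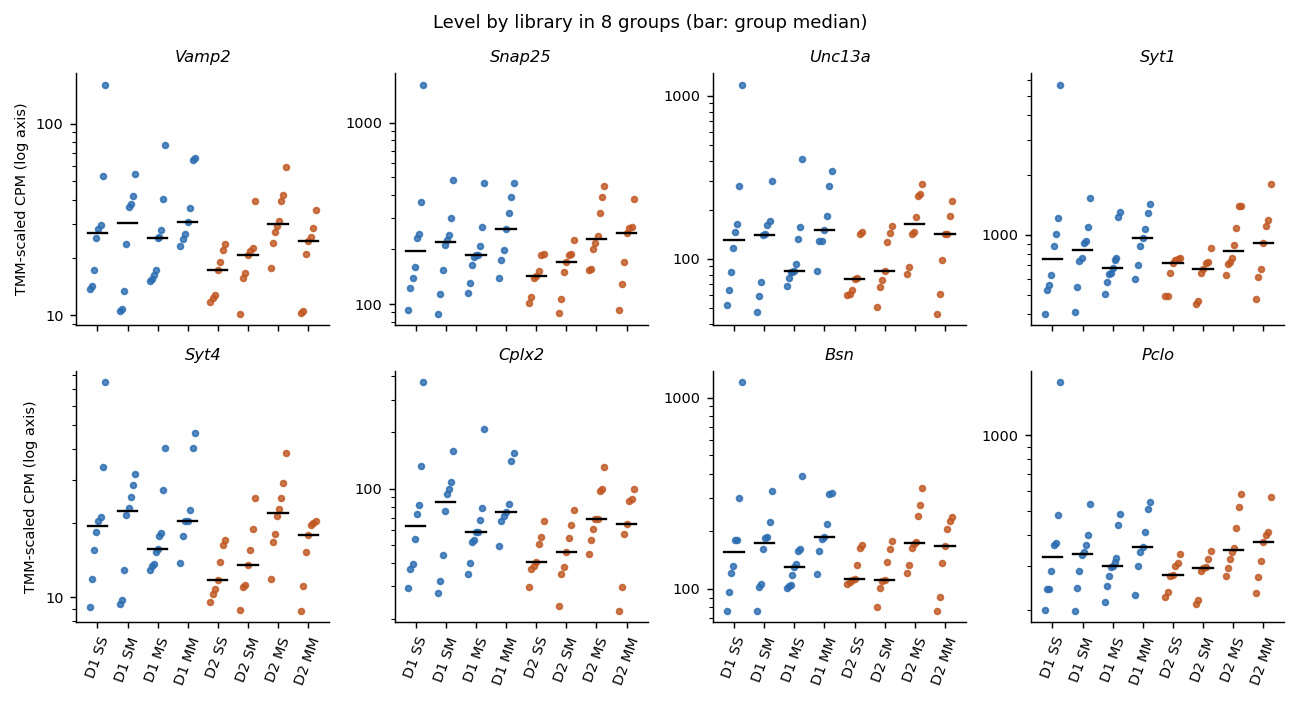
TMM-scaled CPM (log axis) of 8 release genes in each of 61 libraries by group; bars are group medians. Groups overlap for every gene, the single high D1 SS point is library 1, and D2 MS (median 30.1 for Vamp2) lies above D2 SS (17.2) for most of them.

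The other genes followed through the groups had medians in the order D1 SS, SM, MS, MM and then D2 SS, SM, MS, MM. Unc13a was at 131, 141, 83.9 and 151 CPM in D1 and 75.5, 84.4, 164 and 142 in D2. Cplx2 was at 63.2, 84.9, 58.3 and 74.6 CPM in D1 and 40.6, 45.7, 69.0 and 64.7 in D2. In D2 both had their highest median in MS and their lowest in SS. Bsn was at 156, 174, 129.7 and 187 CPM in D1 and 113, 112, 174 and 168 in D2. Pclo was at 325, 336, 300.3 and 358 CPM in D1 and 276, 294, 347 and 373 in D2, and Syn2 at 179, 185, 170.05 and 198 in D1 and 156, 146, 185 and 210.3 in D2. Syt4 was at 19.4, 22.3, 15.7 and 20.5 CPM in D1, with its D2 values given below. The D1 SS median without library 1 was lower for each of them, at 116 for Unc13a, 53.6 for Cplx2, 131 for Bsn, 288 for Pclo, 154 for Syn2 and 18.4 for Syt4.

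Genes near background had narrower ranges. Rab3b had medians of 53.7, 54.6, 53.6 and 57.2 CPM in D1 SS, SM, MS and MM, and 55.2, 56.7, 52.0 and 52.5 in D2. Outside library 1 of D1 SS, at 91.1 CPM, every library lay between 45.2 and 63.0. Rims1 stayed between 307 and 616 CPM outside that library, which was at 2275. Sv2b had medians of 173, 185, 173 and 200 CPM in D1 and 159, 163, 172 and 174 in D2. All of these groups overlapped.

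Comparison of D2 with D1 nuclei, averaged over the 4 treatments, asked whether the sorted neuron classes differ in release genes. By edgeR's quasi-likelihood test, adjusted over 42870 genes, 0 of 70 members were called (adjusted p under 0.05), while 129 genes in all, 0.301%, were called. DESeq2 also called 0 members. At an unadjusted p under 0.05 there were 35 of 70 members, all lower in D2, against 12.2% of all genes. The members' median log2 fold change was -0.22, with 61 negative and 9 positive, and the median of all tested genes was 0.01. Without library 1 of D1 SS the median was -0.10 and 17 members had an unadjusted p under 0.05, against 6.81% of all genes in that fit.

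By role, all 6 active zone genes, 14 of 16 vesicle membrane genes, 20 of 24 sensors and clamps, 13 of 15 assembly genes and 8 of 9 SNARE genes had a negative value. Of the individual members, Rims3 had the smallest p at a log2 fold change of -0.31 ± 0.08 (SE) and an adjusted p of 0.15. The largest difference in size was that of Syt7 at -0.70 ± 0.22 (adjusted p = 0.27), followed by Vamp2 at -0.59 ± 0.20 (0.34), Syp at -0.59 ± 0.18 (0.27) and Cplx2 at -0.58 ± 0.20 (0.34). None of these passed. Without library 1 of D1 SS they were -0.24 for Rims3, -0.46 for Syt7, -0.42 for Vamp2, -0.47 for Syp and -0.41 for Cplx2. The other genes followed throughout gave -0.52 for Unc13a, -0.47 for Syt4 and Snap25, -0.40 for Bsn, -0.34 for Sv2b, -0.31 for Syt1, -0.22 for Syn2, -0.21 for Rims1, -0.20 for Pclo and -0.06 for Rab3b, all uncalled.

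The size of the difference tracked the level of the gene: Spearman's correlation across the 70 genes was -0.80 between fold change and multiple of background. All 33 members at 2 or more multiples were lower in D2, with a median of -0.33, and 28 of the 37 others were, with a median of -0.09. Mean background was 63.8% ± 11.2 (SD, n = 29) in D2, 59.3% ± 16.1 (n = 32) in D1 and 60.99% ± 13.2 (n = 31) in D1 without library 1. With the background of each library as a covariate in the fit, the members' median was -0.03, with 48 negative and 22 positive.

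In that fit 2 members were called, against 0.59% of all genes: Rims3 at -0.16 ± 0.04 (adjusted p = 0.012) and Rims4 at -0.09 ± 0.02 (adjusted p = 0.017), both lower in D2. Both encode short RIM proteins that lack the Rab3-binding part of the long ones. When library 1 of D1 SS was also left out, a fit added after the data had been seen, 4 members were called, against 0.847% of all genes (0.369% lower and 0.479% higher). Rims3 was at -0.15 ± 0.03 (adjusted p = 0.0011), Rims4 at -0.10 ± 0.02 (0.0021) and Sv2b at -0.11 ± 0.03 (0.012), all lower in D2. Syt6, a synaptotagmin whose promoter stretch is shown above with that of Sv2b, was higher in D2 at 0.24 ± 0.05 (0.0080).

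Rims3 values show how small these differences are. Its median was 47.3 CPM in D1 SS (36.2 to 126; at most 68.6 without library 1), 51.0 in D1 SM (31.7 to 83.0), 44.8 in D1 MS (40.2 to 81.6) and 51.1 in D1 MM (47.9 to 72.6). In D2 it was 43.7 in SS (36.5 to 47.0), 38.4 in SM (33.5 to 52.5), 46.9 in MS (40.5 to 51.5) and 44.0 in MM (34.1 to 50.8). Every D2 group overlapped its D1 group. Rims4 had medians of 59.3, 56.5, 58.3 and 66.6 CPM in D1 SS, SM, MS and MM, and 58.9, 49.7, 57.3 and 51.8 in D2. In MM it ran from 58.2 to 71.8 CPM in D1 and from 45.7 to 60.3 in D2, so that the ranges overlapped by a small margin. Syt6 had medians of 131, 163, 130 and 158 CPM in D1 and 126, 132, 175 and 158 in D2; without library 1 its D1 SS median was 109. D2 had the higher median in MS, and in SS once library 1 was left out, and all groups overlapped.

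**Figure D3:**
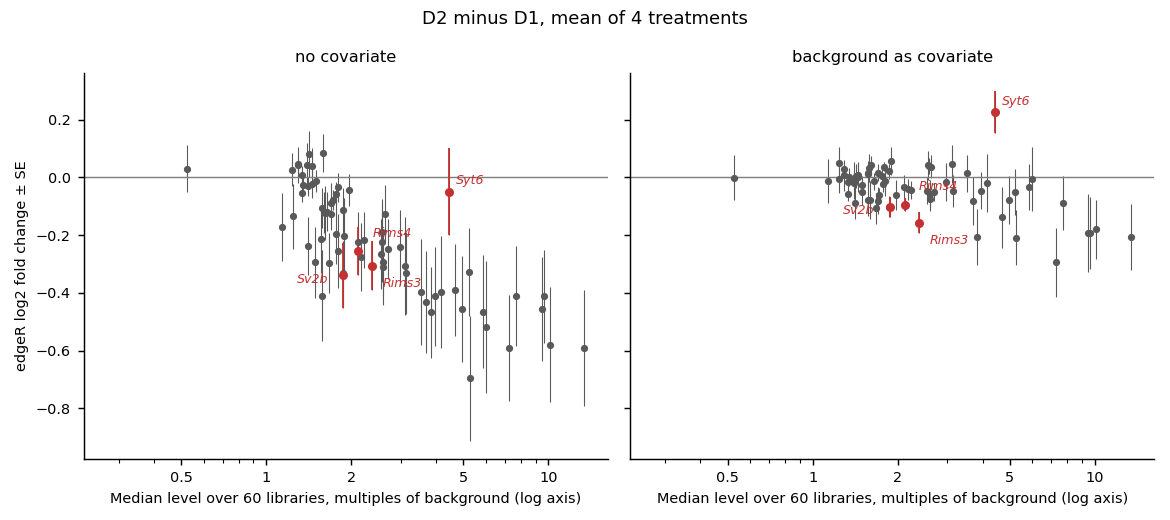
Log2 fold change of D2 minus D1, mean of 4 treatments, with its SE, against the median level of each of the 70 genes (log axis), without (left) and with (right) each library's background as a covariate. On the left the values fall with level, to -0.59 for Vamp2. On the right most lie near 0, with Rims3 at -0.16 and Syt6 at 0.23 marked. Both panels hold all libraries, and in the right fit Rims3 and Rims4 were called while Syt6 and Sv2b, also marked, were not.

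Treatment by treatment, 0 of 70 members were called between D2 and D1 in SS, SM, MS or MM by edgeR, while 0.0467%, 0.0303%, 0.0746% and 0.056% of all genes were. In SS, 48 members had an unadjusted p under 0.05, 45 of them lower in D2, against 27.9% of all genes, with a median of -0.59. Sv2b at -0.83 ± 0.23 and Stx1a at -0.81 ± 0.23 had the smallest p (adjusted p = 0.098 for each). In other fits members were called: DESeq2 called 42 members, 41 lower and 1 higher, against 17.5% of the genes it tested (16.6% lower, 0.978% higher). With RLE scaling edgeR called 44, 43 lower and 1 higher, against 19.2% of all genes (18.5% lower, 0.767% higher). Without library 1 of D1 SS, 1 of 70 had an unadjusted p under 0.05 (3.56% of all genes), the median was -0.13, and Sv2b and Stx1a were at -0.10 and -0.17. That library is also the one with the cortical markers given above; their part in the difference was not tested.

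In SM, 0 members had an unadjusted p under 0.05 (2.16% of all genes did) and the median was -0.21; Rims3 at -0.34 ± 0.17 and Syt2 at -0.13 ± 0.07 had the smallest p. When library 1 of D1 SS was left out, 5 members had an unadjusted p under 0.05, all lower in D2, against 4.79% of all genes. In MS the median was 0.09 and 2 members had an unadjusted p under 0.05 (2% of all genes): Stxbp6 at -0.14 ± 0.06, a soluble protein with a SNARE motif, and Syt6 at 0.67 ± 0.29; without library 1 of D1 SS the count was again 2 (4.28% of all genes). In MM the median was -0.17 and 5 members had one (4.89% of all genes), led by Rab3d at -0.28 ± 0.11 and Syt2 at -0.17 ± 0.07. With library 1 of D1 SS left out, 18 members had one, 17 lower and 1 higher in D2, against 8.47% of all genes. With the background covariate, Rims4 was called in MM at -0.21 ± 0.05 (adjusted p = 0.013), 1 of 70 members against 0.275% of all genes. Without library 1 of D1 SS as well, it was called there again at -0.22 ± 0.04 (adjusted p = 0.0021), 1 of 70 against 0.385%.

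Within D1 nuclei, comparisons with SS asked what the challenge, the history or both did to release genes, and edgeR called 0 of 70 members in each, with 0% of 41083 genes called. The 3 comparisons share the SS libraries. DESeq2 called 0 members too. The median log2 fold change was -0.32 for SM, -0.35 for MS and -0.12 for MM against SS, beside -0.02, 0.01 and -0.04 for all genes. Unadjusted p-values under 0.05 were found for 4, 6 and 1 members, against 1.87%, 2.68% and 1.92% of all genes. Without library 1 of SS the medians were 0.06, 0.04 and 0.22, so the direction of each turned with 1 library. Unadjusted p-values under 0.05 were then found for 0, 0 and 4 members, against 1.28%, 1.1% and 5.68% of all genes.

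Stx1a, a syntaxin of the fusion complex, and Syt13 had the smallest p in SM against SS, at -0.73 ± 0.28 and -0.61 ± 0.25, and in MS against SS, at -0.69 ± 0.27 and -0.62 ± 0.25. Stx1a had a median of 27.0 CPM in SS (18.8 to 143; at most 30.2 without library 1), 24.2 in SM (18.3 to 29.6), 22.4 in MS (20.4 to 36.7) and 26.4 in MM (24.6 to 43.6). The groups overlapped, and without library 1 its differences were -0.08 for SM and -0.06 for MS. In MM against SS the smallest p belonged to Syngr4 at 0.38 ± 0.15 and Syt13 at -0.53 ± 0.26, not called. Syngr4, a synaptogyrin near background here, was at 0.28 without library 1, and Syt13 turned to 0.06.

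The morphine challenge after a morphine history (D1 MM against MS) does not involve the SS group. 0 of 70 members were called, with 0% of all genes, 0 had an unadjusted p under 0.05 (2.29% of all genes did), and DESeq2 called 0. The fit shares its spread with SS: without library 1 of that group 5 members had an unadjusted p under 0.05 (4.92% of all genes) and 0 were called. The median was 0.18, with 62 members positive and 8 negative, beside -0.01 for all genes. All 33 members at 2 or more multiples of background were positive, and Spearman's correlation of fold change with level across genes was 0.80. Syngr4 at 0.24 ± 0.15 and Rab3d at 0.18 ± 0.12 had the smallest p. Larger but less precise values came from Unc13a at 0.49 ± 0.51, Bsn at 0.45 ± 0.42, Vamp2 at 0.42 ± 0.45, Syt4 at 0.42 ± 0.35, Snap25 at 0.38 ± 0.45, Cplx2 at 0.33 ± 0.44, Syt1 at 0.32 ± 0.39 and Pclo at 0.25 ± 0.31. Sv2b was at 0.21 ± 0.29, Syn2 at 0.17 ± 0.31, Rims1 at 0.16 ± 0.29 and Rab3b at 0.09 ± 0.10. Mean background was 53.9% in MM and 63.3% in MS, and with it as a covariate the median was 0.05.

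D1 MM against SM gave a similar picture: 0 members called (0% of all genes), 0 with an unadjusted p under 0.05 (1.34% of all genes), and a median of 0.16. Syngr4 at 0.27 ± 0.15 and Syngr3 at 0.50 ± 0.36 had the smallest p. With library 1 of SS left out, 2 members had an unadjusted p under 0.05 (2.88% of all genes). The interaction, which sets the challenge response after morphine against that after saline, called 0 members (0% of all genes). It had a median of 0.54, and 0.11 without library 1 of SS; 2 members had an unadjusted p under 0.05 (2.32% of all genes). These were Stx1a at 0.99 ± 0.40 and Syngr1 at 1.00 ± 0.47, which were at 0.36 and 0.41 without library 1, where 0 members had an unadjusted p under 0.05 (1.53% of all genes).

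In D2 nuclei the release genes with the higher levels had higher values in mice with a morphine history and a saline challenge (MS) than in SS, a comparison of the history alone. By edgeR 0 of 70 members were called, with 0% of 41125 genes, but 45 members had an unadjusted p under 0.05, 40 of them higher and 5 lower in MS, against 32% of all genes. The lowest adjusted p was 0.071. DESeq2 called 35 members, 33 higher and 2 lower, against 12% of the genes it tested (9.31% higher, 2.7% lower). With the replicate number as a block edgeR called 34, 29 higher and 5 lower, against 20.9% of all genes (14.2% higher, 6.69% lower). The median was 0.30 for the members and -0.05 for all genes.

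Syt15 at -0.40 ± 0.10 and Syt4 at 0.82 ± 0.22 had the smallest p, both with an edgeR adjusted p of 0.071. Syt4, a calcium-independent synaptotagmin also known as an activity-induced gene, had a median of 11.8 CPM in SS (9.57 to 17.0) and 22.1 in MS (11.9 to 38.5). It was at 13.6 in SM (8.92 to 25.2) and 17.9 in MM (8.81 to 20.5). Vamp2 had the difference 0.98 ± 0.28, Unc13a 0.98 ± 0.34, Snap25 0.84 ± 0.26, Cplx2 0.76 ± 0.29, Rab3a 0.75 ± 0.24 and Bsn 0.63 ± 0.23, each with an adjusted p between 0.071 and 0.081. For these genes MS libraries lay mostly above SS libraries, with overlap: Vamp2 ran from 17.6 to 59.3 CPM in MS and from 11.8 to 23.7 in SS, and Snap25 from 154 to 445 and from 102 to 189. Syt15, near background, went the other way, with 4.86 to 6.59 CPM in MS and 5.96 to 8.59 in SS.

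The members at 2 or more multiples of background made up most of this pattern. Of those 33, 32 were higher in MS, with a median of 0.63, and 31 had an unadjusted p under 0.05. Of the 37 others 17 were higher and 20 lower, with a median of -0.06. Spearman's correlation of fold change with level was 0.83 across the 70 genes. All 5 roles had positive medians, from 0.18 for sensors and clamps to 0.35 for SNARE genes.

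Library background moved with this comparison: it was 42.5% to 69.3% in D2 MS and 59.8% to 74.3% in D2 SS. The summed level of the 8 D2 neuron markers in the table moved too, from 1329 to 3253 CPM in MS against 1170 to 1898 in SS, and that of 9 markers of both projection neuron classes from 2459 to 6857 against 2154 to 3275. The summed levels of the 6 lists of other cells went the other way, for example 121 to 198 CPM in MS against 170 to 214 in SS for cortical neurons and 227 to 372 against 328 to 393 for interneurons. With background as a covariate the median was 0.05, 13 of 70 members had an unadjusted p under 0.05, against 13.7% of all genes, and 0 were called. Vamp2 was then at 0.49 ± 0.16, Syt4 at 0.44 ± 0.15, Snap25 at 0.30 ± 0.12 and Syt15 at -0.36 ± 0.10, none passing (adjusted p 0.29 to 0.31). The part of sorting purity in these values was not tested.

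**Figure D4:**
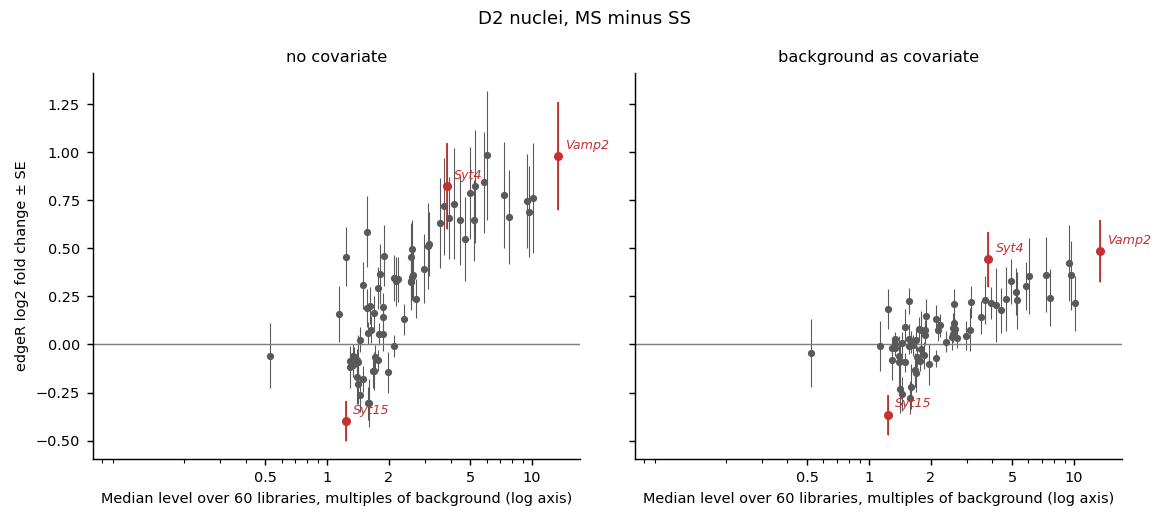
Log2 fold change of D2 MS minus SS, with its SE, against the median level of each of the 70 genes (log axis), without (left) and with (right) background as a covariate. On the left the values climb with level, to 0.98 for Vamp2; on the right Vamp2 is at 0.49 and Syt15 stays at -0.36.

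The other D2 comparisons called 0 of 70 members and 0% of genes by edgeR, and DESeq2 called 0 members in each. SM against SS had a median of 0.00, and 3 members had an unadjusted p under 0.05 (3.24% of all genes), led by Syngr4 at -0.25 ± 0.09 and Rims4 at -0.15 ± 0.06. MM against SS had a median of 0.19, and 15 members had one (13.3% of all genes), led by Stxbp5l (tomosyn 2) at 0.36 ± 0.13 and Syngr4 at -0.25 ± 0.09. SM, MS and MM were each set against the same SS libraries. MM against SM had a median of 0.11, and 13 members had an unadjusted p under 0.05 (7.73% of all genes), led by Rims2 at 0.42 ± 0.16 and Stxbp5l at 0.32 ± 0.13.

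In MM against MS, the challenge after a morphine history, the D2 median was -0.08, and 8 members had an unadjusted p under 0.05, 7 lower and 1 higher, against 3.76% of all genes. Syt15 at 0.37 ± 0.10 and Syt4 at -0.51 ± 0.22 had the smallest p. Vamp2 was at -0.61 ± 0.28, Unc13a at -0.47 ± 0.33, Bsn at -0.32 ± 0.23, Cplx2 at -0.29 ± 0.28 and Snap25 at -0.27 ± 0.26. Rims1 at 0.03 ± 0.10, Syt1 at 0.02 ± 0.22, Rab3b at 0.01 ± 0.06, Syn2 at -0.08 ± 0.18, Sv2b at -0.08 ± 0.07 and Pclo at -0.09 ± 0.16 were close to 0. Spearman's correlation with level was -0.83, and 32 of the 33 members at 2 or more multiples were negative. Mean background was 62.0% in D2 MM and 56.9% in D2 MS. With it as a covariate the median was -0.02, with 29 members positive and 41 negative. In that fit 11 members had an unadjusted p under 0.05, against 5.68% of all genes, and 0 were called. The MS libraries enter this comparison and that with SS from opposite sides, so the mirrored signs are not independent.

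The interaction in D2 had a median of -0.05, and 5 members had an unadjusted p under 0.05 (3.56% of all genes). Syt15 at 0.59 ± 0.15 and Vamp2 at -0.91 ± 0.40 had the smallest p, neither called. With background as a covariate 18 members had an unadjusted p under 0.05, 16 negative and 2 positive, against 9.12% of all genes; Vamp2 was at -0.81 ± 0.22 and 0 members were called. The MM against MS response was also compared between D2 and D1 directly. 0 of 70 members were called (0% of genes), by DESeq2 as well; 2 had an unadjusted p under 0.05 (3.57% of all genes), Syt4 at -0.93 ± 0.44 and Syngr1 at -0.80 ± 0.40. The median was -0.27, with 58 members negative. In the fit without library 1 of D1 SS, 13 members had an unadjusted p under 0.05, 10 negative and 3 positive, against 7.7% of all genes, and 0 were called. With the background covariate the median was -0.08, and 12 members had one, 9 negative and 3 positive, against 6.9% of all genes.

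**Figure D5:**
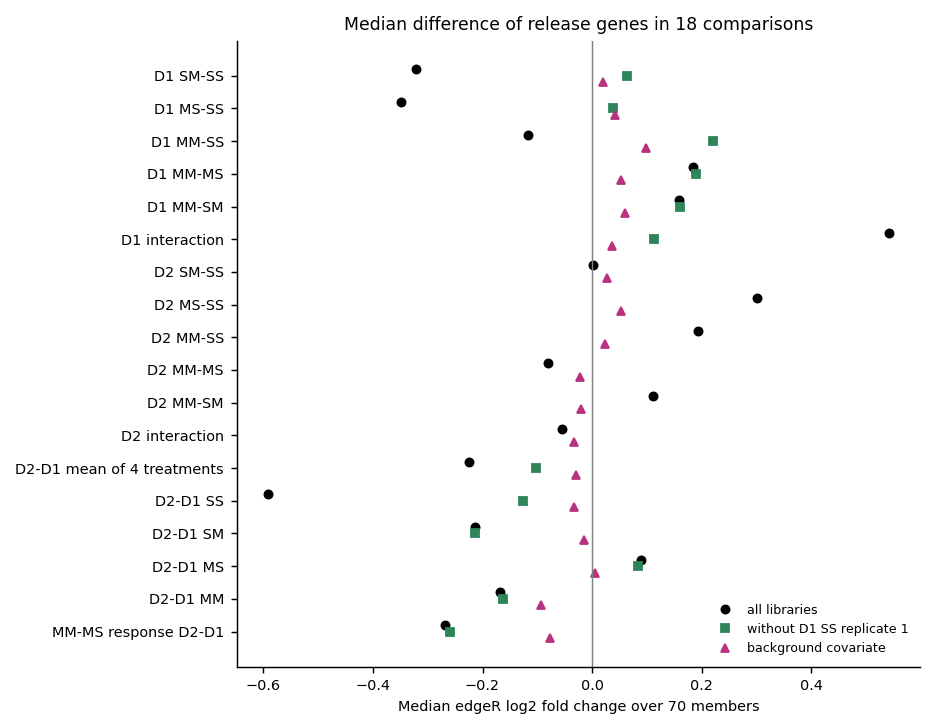
Median edgeR log2 fold change over the 70 genes in each of 18 comparisons, with all libraries (black), without library 1 of D1 SS (green, where that library enters the fit) and with background as a covariate (magenta). The black points run from -0.59 (D2 minus D1 in SS) to 0.54 (D1 interaction), and the magenta points lie between -0.09 and 0.10.

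Across all 18 comparisons the medians with all libraries ran from -0.59 to 0.54. Under the background covariate they ran from -0.09 in D2 minus D1 in MM to 0.10 in D1 MM against SS. The plot of medians shows that leaving out library 1 of D1 SS moved D2 minus D1 in SS most, from -0.59 to -0.13, followed by the D1 interaction, from 0.54 to 0.11, and then the D1 comparisons with SS.

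Further lists cover genes of the pathway outside these families. Of 50 active zone and release partners, 36 vesicle endocytosis genes and 28 vesicle acidification and transmitter loading genes, 26, 23 and 14 were at 2 or more multiples of background over the 60 libraries. In D2 MS against SS their medians were 0.25, 0.35 and 0.29, with 41 of 50, 32 of 36 and 20 of 28 positive and none called. In D2 minus D1 over the 4 treatments they were -0.16, -0.20 and -0.22. In D1 MM against MS they were 0.12, 0.20 and 0.16, with none called. The 1 gene called in the 3 lists with all libraries was Slc17a7, which loads glutamate into vesicles, at -1.01 ± 0.24 in D2 minus D1 over the 4 treatments (edgeR adjusted p = 0.035) and -2.44 ± 0.50 in SS (0.023). It is also a cortical neuron marker, stood at 202 multiples of background in library 1 of D1 SS, and was not called in either comparison without that library.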

How the data were processed

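Nuclear RNA was sequenced in 61 libraries (32 from D1 and 29 from D2 nuclei). The authors deposited raw counts per gene, made with featureCounts on mm10, and FPKM per gene, with DESeq2 also named, per the submitters' processing notes. Neither the aligner nor the counting's strand setting was stated in the sources used. The length behind the deposited FPKM values equals the whole gene span for 54281 of 54281 genes compared (tolerance 1e-06), and FPKM served only for that check. Of 55401 gene IDs, 55141 were matched to a symbol without their version and 260 had none.

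Counts were fitted with edgeR 4.0.16 in R 4.3.3: TMM scaling, filterByExpr by group, robust quasi-likelihood tests, two-sided, with Benjamini-Hochberg adjustment over all genes tested and calls at an adjusted p under 0.05. D1 (41083 genes) and D2 (41125) were fitted apart with 4 groups each, and all 8 groups together (42870 genes) for D2 against D1. All 70 members passed the filter in each fit, with mean counts of 20.4 to 16003. Alternatives were DESeq2 1.42.0, RLE scaling, no filter, the replicate number as a block, background as a covariate, and leaving out D1 SS library 1; background with that library left out was added after the data had been seen. The fits were also run on simulated counts, drawn gene by gene without a background that varies between libraries. That simulation cannot show how the fits behave under such background. Genes were named by a rule: called members, the 2 with the smallest p where none was called, 12 followed across the groups and in D2 against D1 and MM against MS, and the 5 highest and 5 lowest by CPM per kb; other named genes were chosen after their values were seen. The members, lists and tests were chosen with earlier results of these data known. Promoter sequences come from RefSeq on GRCm38.p6. The results of some members are not reported here by name.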

Additional observations from a re-analysis of the deposited data

Results flagged for a closer look

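In groups of 4 to 10 libraries, the gap of the highest or lowest library to its neighbour was set against the range of the group. Gene levels were taken on a log scale, on which a gap counts for less than in CPM when the range is wide. Of 104 sets of values tested 10 stood out, where chance alone gives about 1 in 20. The sets share libraries, so they are not independent tests, and the 10 cannot be weighed against that rate.

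Library 1 of D1 SS was flagged as far above its group for 5 genes. Its TMM-scaled levels were 5671 CPM for Syt1, 2275 for Rims1, 1628 for Pclo, 1087 for Sv2b and 91.1 for Rab3b. That library was also the highest of its group for Snap25 and Vamp2, which were not flagged on the log scale. Its background of 7.47% and its cortical markers are given in the report. Library 2 of D1 MS was far above its group for Unc13a at 408 CPM, Bsn at 389 and Cplx2 at 208. The same library had the lowest background of that group, 36.4%, also far from the others. Library 6 of D1 MS was far above its group for Rims1, at 574 CPM. The part of the background in these values was not tested.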

How the results depend on the processing

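The reported edgeR count of called members was 0 in each of the 18 comparisons. Under the alternatives 106 counts were also 0 and 8 were not. A count that stays at 0 does not show that the fold changes are stable. In D2 MS against SS, 0 became 35 with DESeq2 and 34 with the replicate block. In D2 minus D1 in SS, 0 became 42 with DESeq2 and 44 with RLE scaling. With the background covariate, 0 became 2 in D2 minus D1 over the 4 treatments and 1 in MM, and 4 and 1 when library 1 of D1 SS was also left out. Vamp2, Unc13a, Snap25 and Bsn were among those called in D2 MS against SS with both DESeq2 and the block, and Rims3 and Rims4 were the 2 called with the covariate. The cause was not tested. Replicate numbers did not pair libraries: residuals of same-numbered libraries had a median r of 0.023 in D1 and 0.019 in D2, and 5 of 32 and 4 of 29 libraries correlated best with their own number.

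Of the alternative values of the genes named by the rule, in the comparisons where the rule names them, 407 kept direction and side of the threshold, 7 passed it anew (Syt15, Syt4, Sv2b and Stx1a) and 23 changed sign, all between -0.097 and 0.067. Syt13 in D1 MM against SS was at 0.067 with DESeq2 and 0.0599 without replicate 1 of D1 SS. In D1 MM against MS the covariate gave Rims1 -0.021 and Syn2 -0.019, and, with that library left out, Snap25 -0.015, Cplx2 -0.057, Syn2 -0.097 and Pclo -0.0095. In D2 MM against MS the block gave Syt1 -0.097 and Rims1 -0.0078, and the covariate Syn2 0.043 and Pclo 0.0299. In D2 minus D1 over the 4 treatments the covariate gave Syt1 0.046, Rims1 0.013, Syn2 0.042, Bsn 0.014 and Pclo 0.057, and, without that library, Syt1 0.053, Rims1 0.0065, Unc13a 0.022, Syn2 0.052, Bsn 0.031 and Pclo 0.064. Members under 2 multiples of background hold fewer counts above background than in it, which limits the differences that this depth can show.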
